A study of Mus musculus with 6 samples.

Results

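Genes of the brain's blood vessels were examined in whole-brain expression profiles of mice with 1 disrupted copy of the periphilin gene and of their wild-type littermates. The set comprised 32 genes, 23 of endothelial cells and 9 listed as mural, the pericytes and smooth muscle cells that wrap vessels. All probe sets annotated to exactly 1 gene with a symbol on that list were taken. This gave 53 of the 45101 probe sets on the array, for 30 of the 32 genes, out of 18193 genes with a probe set of their own. Ly6c1 and Ly6a, surface antigens found on endothelium, had no probe set that met this rule and were not analysed here. Of the 53 probe sets, 49 passed the filter on dim signals (a mean above 18.4, taken on the log2 scale and converted back to intensity), and they covered 29 genes, 21 endothelial and 8 mural.

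Pphln1 encodes periphilin, which belongs to HUSH, a protein complex that silences repeats and some genes in chromatin. The heterozygous group held 3 brains labelled periphilin+/-knockout, and the comparison group held 3 brains of C57BL/6 wild-type littermates. All animals were male and 2 months old, and each brain was hybridised to its own Affymetrix array. The sources used here do not say where the allele is disrupted. Values are the authors' deposited intensities, already scaled to a common level on every array. Differences are heterozygous minus wild type on the log2(intensity + 16) scale, on which changes of dim genes are understated, and each gene is represented by its brightest probe set unless another is named. A whole brain is a mixture of cell types, so fewer vessel cells and less RNA per vessel cell cannot be told apart. Of 10 neuron markers fixed as a check of the tissue, 10 passed the dim filter. Pphln1 itself had 2 probe sets. At 1434822_at the genotypes overlapped, with a log2 difference of 0.08 (SE 0.11), and at 1435766_at all heterozygous values (30.6 to 44.4) lay below the wild-type values (46.3 to 63.2), at -0.36 (SE 0.18, limma adjusted p = 0.956). Whether either probe set lies in the disrupted part is not known here, so neither settles the labels.

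Brain endothelial cells form the blood-brain barrier. Claudins and occludin seal the gaps between neighbouring cells, and transporters in the membrane decide which molecules enter the brain or are returned to the blood. Pericytes lie against the outer wall of capillaries and are recruited by platelet-derived growth factor signalling, whereas smooth muscle cells ring the arterioles and carry the contractile proteins that set vessel diameter.

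None of the 29 genes tested was called different between genotypes. Their limma p-values, adjusted by Benjamini and Hochberg's method for the 27022 probe sets in the fit, ran from 0.956 to 0.994. Over the whole array 0.0148% of probe sets and 0.00768% of genes were called. At an unadjusted limma p under 0.05, 0 of the 29 genes passed, compared with 4.38% of the 13024 genes tested on the array, and the smallest unadjusted p was 0.110. The log2 differences of the vessel genes ran from -0.24 (Flt1) to 0.33 (Kdr), with a median of 0.02 beside 0.01 for all genes tested. By sign, 17 genes were higher and 12 lower in heterozygous brains. The share above 0 was 58.6%, against 52% of all genes.

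On the log2 scale used here, the data bounded these differences fairly closely. For 26 of the 29 genes the 95% confidence interval of the difference, not adjusted for the number of genes, lay within 1.5-fold in both directions, as it did for 82.9% of all genes. The exceptions were the cadherin gene Cdh5, with an upper limit of 1.59-fold, and the growth factor receptor genes Kdr, with an upper limit of 1.69-fold, and Flt1, with a lower limit of 0.625-fold. Tie1 and Pecam1 lay just inside, with lower limits of 0.684-fold and 0.680-fold. These are not folds of intensity, because the constant added before taking logs shrinks the folds of dim genes. For Kdr the log2 difference was 0.33 in the main fit, 0.48 with pseudocount 1 and 0.17 with pseudocount 64. Genotypes did not overlap for 2 of the 29 genes, Itm2a and Cd34, both lower in heterozygous brains. Of all genes, 10.1% had genotypes that did not overlap, 4.95% with the heterozygous brains lower and 5.19% with them higher, so the members' count was near the background.

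**Figure D1:**
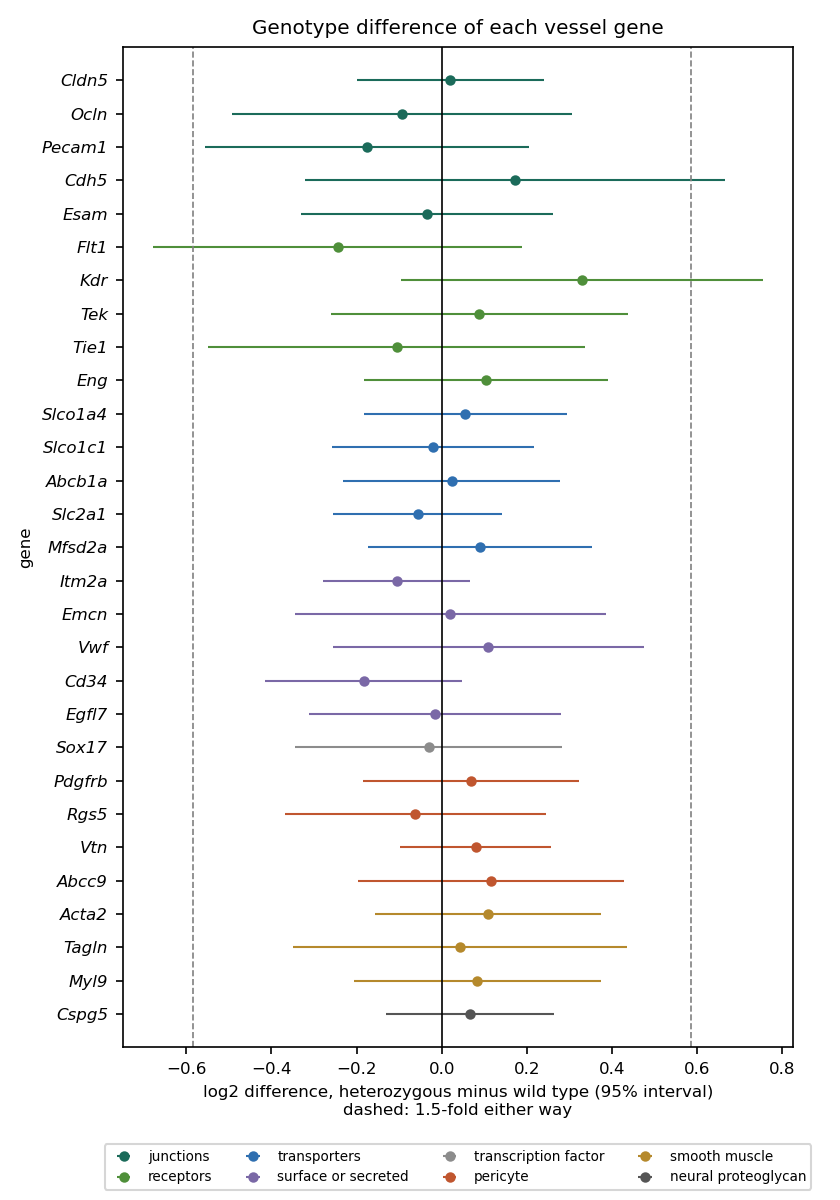
Log2 difference, heterozygous minus wild type, of each of the 29 vessel genes (points) with its 95% confidence interval (bars), coloured by role, from 3 brains per genotype. Every interval includes 0, and those of Cdh5, Flt1 and Kdr cross the dashed lines at 1.5-fold on this scale.

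The junction genes showed no shared direction. Cldn5, the main claudin of the blood-brain barrier, measured 243, 286 and 271 in the heterozygous brains and 269, 265 and 253 in the wild-type brains. The groups overlapped, with both the lowest and the highest value among the heterozygous brains. The means were 267 ± 22.1 (SD, n = 3) and 262 ± 8.25 (n = 3), a log2 difference of 0.02 with a 95% interval of -0.20 to 0.24. Cldn5 therefore had one of the narrower intervals of the set.

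Pecam1, an adhesion molecule at endothelial contacts, measured 43.4, 58.2 and 37.3 in heterozygous and 51.5, 49.2 and 61.1 in wild-type brains. Heterozygous 2 lay among the wild-type values and the other heterozygous brains below them, and the log2 difference was -0.18 (SE 0.17). Occludin, encoded by Ocln, lay at -0.09 by both of its tested probe sets. Esam, another endothelial adhesion molecule, lay at -0.03 (SE 0.13).

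Cdh5, which encodes the cadherin of endothelial adherens junctions, was at 0.17 (SE 0.22). Wild type 2 was the low sample, at 18.4, whereas the other brains lay between 36.1 and 44.5, and without wild type 2 the difference turned to -0.09. A second Cdh5 probe set, 1422047_at, was left out as dim. It measured 19.9, 16.6 and 20.9 in heterozygous and 0.876, 11.8 and 11.1 in wild-type brains, so that the groups did not overlap, at a mean of 12.6 converted back from the log2 scale.

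Among the receptors, Flt1 and Kdr marked the ends of the range. Both encode receptors for vascular endothelial growth factors, Kdr the main signalling receptor and Flt1 a high-affinity receptor that also acts as a decoy. Flt1 measured 80.7, 152 and 152 in heterozygous and 142, 143 and 165 in wild-type brains. Heterozygous 1 lay apart from the other 5 brains. The log2 difference of Flt1 was -0.24 (SE 0.20, 95% interval -0.68 to 0.19), and it was 0.02 without heterozygous 1.

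Kdr measured 47.5, 34.9 and 43.1 in heterozygous and 21.1, 38.5 and 31.5 in wild-type brains. Only heterozygous 2 and wild type 2 were out of the order of the genotypes. Its means were 41.8 ± 6.42 and 30.4 ± 8.76 (n = 3 each), a log2 difference of 0.33 (SE 0.19, 95% interval -0.10 to 0.75, limma adjusted p = 0.956).

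The angiopoietin receptor gene Tek lay at 0.09 (SE 0.16) and its relative Tie1, the dimmest member tested, at -0.11 (SE 0.20). Eng, which encodes the TGF-beta co-receptor endoglin, lay at 0.10 (SE 0.13). Eng was even among the heterozygous brains, at 155 to 164, and spread among the wild-type brains, at 121 to 168.

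The transporters of the blood-brain barrier were close to 0 by their brightest probe sets. Slc2a1 encodes the glucose transporter GLUT1, which endothelial cells share with astrocytes. Its signal was 1148, 1177 and 1012 in heterozygous and 1165, 1224 and 1082 in wild-type brains. The ranges overlapped over most of their length, and the log2 difference was -0.06 (SE 0.09, 95% interval -0.25 to 0.14). Slc2a1 lay at -0.10 (SE 0.08) by 1426599_a_at and at 0.07 (SE 0.12) by 1426600_at.

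Slco1a4, an organic anion transporter gene, measured 416, 388 and 380.1 in heterozygous and 325, 419 and 399 in wild-type brains. Wild type 1 was the low sample, and the difference was 0.06 (SE 0.11). Slco1c1, which encodes a thyroid hormone transporter, lay at -0.02 (SE 0.11). The drug efflux pump gene Abcb1a lay at 0.02 (SE 0.12) by its brightest probe set and at 0.20 (SE 0.14) by 1419758_at. Mfsd2a, a lipid transporter gene, lay at 0.09 (SE 0.12). All 5 transporter genes had intervals within 1.5-fold.

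Among surface and secreted proteins, Cd34 and Itm2a were the members with separate genotypes. Cd34, a sialomucin of endothelium and blood progenitors, measured 232, 203 and 246 in heterozygous and 269, 248 and 259.9 in wild-type brains. The gap between heterozygous 3 and wild type 2 was small. The means were 227 ± 22 and 259 ± 10.7 (n = 3 each), and the log2 difference was -0.18 (SE 0.11, 95% interval -0.42 to 0.05, limma adjusted p = 0.956).

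Itm2a, a membrane protein gene with high expression in brain endothelium, measured 1671, 1557 and 1499.8 in heterozygous and 1672, 1728 and 1686 in wild-type brains. Heterozygous 1 and wild type 1 differed by less than 1 unit, so the separation rests on that pair. The log2 difference was -0.11 (SE 0.08), and the second Itm2a probe set, 1451047_at, lay at 0.03 (SE 0.09) with overlapping groups.

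The remaining genes of this kind overlapped. Emcn, which encodes the sialomucin endomucin of capillaries and veins, lay at 0.02 (SE 0.17), and Vwf, the von Willebrand factor gene, at 0.11 (SE 0.17). Egfl7, a secreted factor of endothelium, lay at -0.02 by its brightest probe set and between -0.09 and 0.16 over its 4 tested probe sets. Sox17, a transcription factor of arterial endothelium, lay at -0.03 (SE 0.14). The brightest probe sets of Egfl7 and Sox17 have the suffix _x_at, which the manufacturer gives to probe sets with probes that may bind other transcripts.

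**Figure D2:**
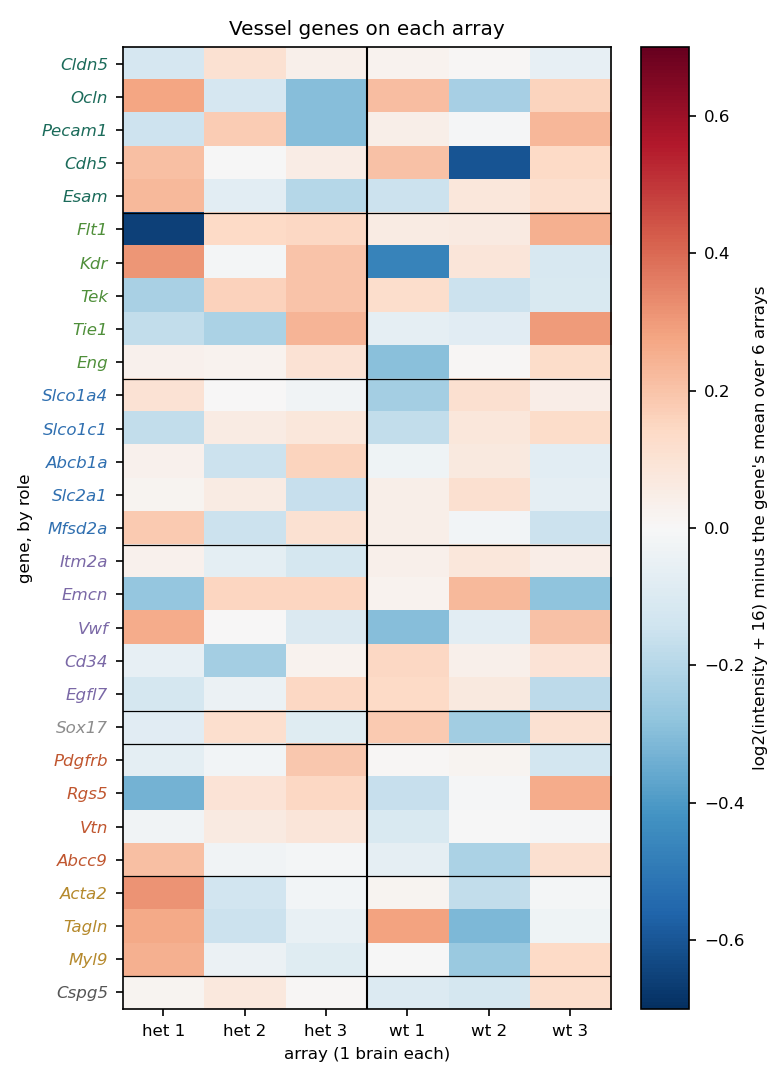
Deviation of log2(intensity + 16) from each gene's mean over the 6 arrays, for the 29 vessel genes (rows, grouped by role and coloured as to role) on each array (columns, heterozygous left and wild type right of the line). The 3 smooth muscle genes are lowest on wild type 2, and Flt1 stands out on heterozygous 1.

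By their brightest probe sets, the pericyte genes tested lay within 0.12 of 0. Pdgfrb, the receptor through which pericytes are recruited, measured 163, 169 and 198 in heterozygous and 173, 174 and 156 in wild-type brains. The wild-type values lay between the lowest and the highest heterozygous value, apart from wild type 3, which was the lowest of all. Pdgfrb lay at 0.07 (SE 0.12, 95% interval -0.18 to 0.32).

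Vtn, the vitronectin gene, which pericytes express in the brain, measured 832, 884 and 899 in heterozygous and 785, 845 and 841 in wild-type brains. The order of the genotypes was broken only by heterozygous 1, and the difference was 0.08 (SE 0.08, 95% interval -0.10 to 0.26). At the dimmer Vtn probe set 1455098_a_at the signal was 397, 382 and 371 against 333, 369.8 and 327. There the groups did not overlap, with a difference of 0.15 (SE 0.09, limma adjusted p = 0.956).

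Abcc9, which encodes a regulatory subunit of the pericyte potassium channel, lay at 0.12 (SE 0.14) by its brightest probe set, at 0.33 (SE 0.22) by 1420408_a_at and at -0.01 (SE 0.26) by 1435751_at. Anpep, an aminopeptidase gene of pericytes and other cells, had 1 probe set. Its mean of 12, converted back from the log2 scale, lay below the dim limit, so it was not tested, and its values of 19.8, 4.48 and 7.64 in heterozygous and 15.6, 11 and 16.5 in wild-type brains overlapped. The member probe sets nearest to the limit on either side were that of Cdh5 at 12.6 and one of Pdgfrb, 1417148_at, at 23.8.

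Rgs5, a regulator of G-protein signalling and a classical pericyte marker, measured 982, 1325 and 1372 in heterozygous and 1106, 1235 and 1491 in wild-type brains at its brightest probe set. The groups overlapped widely, heterozygous 1 being the lowest and wild type 3 the highest, and the difference was -0.06 (SE 0.14). The dimmer Rgs5 probe sets lay further below 0. The difference was -0.22 (SE 0.17) at 1420942_s_at, -0.14 (SE 0.19) at 1420941_at and -0.58 (SE 0.46) at 1420940_x_at. At each of them the groups overlapped, with limma adjusted p from 0.956 to 0.966. The suffix of 1420940_x_at marks probes that may bind other transcripts, and that of 1420942_s_at marks a probe set shared by several transcripts. The 4 probe sets of Rgs5 did not all move together from brain to brain. The brightest probe set, 1420942_s_at and 1420940_x_at were each lowest on heterozygous 1 and highest on wild type 3. Only 1420941_at departed from this. On heterozygous 1, 1420940_x_at measured 26.0, against 95.3 to 202 on the other arrays, while 1420941_at measured 344, its highest value.

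The ratio of 1420941_at to 1420940_x_at set 2 arrays apart, 1 of each genotype. It was 13.2 on heterozygous 1 and 3.41 on wild type 1, and between 1.32 and 1.48 on the other 4 arrays. The ratio of the other pair of Rgs5 probe sets, 1417466_at to 1420942_s_at, ran from 3.43 to 4.93. Flt1 showed a like split on heterozygous 1 only. There the ratio of 1440926_at to 1419300_at was 0.982, against 0.409 to 0.515 on the other arrays.

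At 1451756_at, Flt1 measured 72.8 on heterozygous 1 and 102 to 143 elsewhere. At 1454037_a_at the array was unremarkable, with 41.0, while the heterozygous values of 37.5 to 41.0 all lay below the wild-type values of 42.6 to 47.5. The log2 difference there was -0.14 (SE 0.15). The low values of Flt1 and Rgs5 on heterozygous 1 were thus seen at some of their probe sets and not at others.

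**Figure D3:**
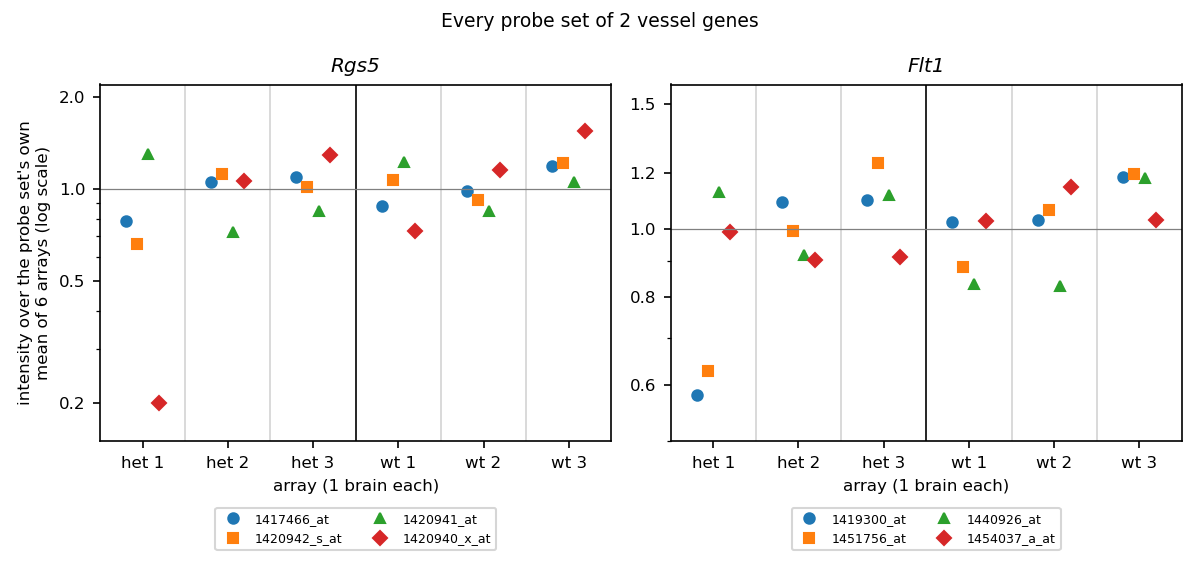
Intensity of each of the 4 probe sets of Rgs5 (left) and of Flt1 (right) on each array, divided by that probe set's mean over the 6 arrays, on a log axis. On heterozygous 1, Rgs5 1420940_x_at (26.0) lies far below its mean while 1420941_at (344) is above its own, and 2 of the Flt1 probe sets are low while the other 2 are near their means. The remaining Rgs5 probe sets are also lowest on heterozygous 1.

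Over all members with several tested probe sets, the sign of the genotype difference was shared by all probe sets in 6 of 12 genes. These were Ocln, Abcb1a, Sox17, Pdgfrb, Rgs5 and Vtn. In the other 6, Flt1, Eng, Slc2a1, Itm2a, Egfl7 and Abcc9, probe sets of 1 gene pointed both ways. Of all 53 member probe sets, dim ones included, 5 had genotypes that did not overlap: those of Cd34, Itm2a, Flt1, Vtn and Cdh5 already given. Over all probe sets of the array the share was 10.2%.

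The smooth muscle genes varied together between brains without following genotype. Acta2, which encodes smooth muscle actin, measured 598, 433 and 469.8 in heterozygous and 483, 422 and 473 in wild-type brains. Myl9, the regulatory light chain of smooth muscle myosin, measured 287, 233 and 226 in heterozygous and 239.6, 197 and 265 in wild-type brains. Heterozygous 1 was the highest and wild type 2 the lowest for both genes.

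Tagln, which encodes the actin-binding protein transgelin, measured 108, 76.9 and 83.7 in heterozygous and 109.6, 66.9 and 84.9 in wild-type brains. Wild type 2 was again the lowest, and heterozygous 1 and wild type 1 were the highest and nearly equal. The log2 differences were 0.11 (SE 0.12) for Acta2, 0.08 (SE 0.13) for Myl9 and 0.04 (SE 0.18) for Tagln. Without heterozygous 1 they turned to -0.02, -0.02 and -0.08. The probe set used for Acta2, 1416454_s_at, has a suffix given to probe sets shared by several transcripts, and 2 further Acta2 probe sets were dim.

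Smooth muscle genes are classical targets of serum response factor, which binds an element called the CArG box. The promoters of Acta2 and Myl9, which had the same highest and lowest brain, are shown. No promoter was listed for Tagln, so it could not be searched. The sequences are the 250 bases before the gene start from RefSeq (GRCm38.p6), on the gene's strand, in lower case, with matches to the CArG box in capitals. A match was an A/T core between CC and GG, with at most 1 core base that is G or C. The pattern reads the same on both strands, so both were searched at once. Acta2 lies on the minus strand at chr19:34255374-34255623, and Myl9 on the plus strand at chr2:156775214-156775463.
Acta2: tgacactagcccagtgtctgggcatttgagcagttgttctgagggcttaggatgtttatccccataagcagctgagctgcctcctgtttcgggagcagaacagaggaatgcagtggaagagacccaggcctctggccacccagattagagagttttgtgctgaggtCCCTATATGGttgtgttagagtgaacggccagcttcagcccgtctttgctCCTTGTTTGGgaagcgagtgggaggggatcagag
Myl9: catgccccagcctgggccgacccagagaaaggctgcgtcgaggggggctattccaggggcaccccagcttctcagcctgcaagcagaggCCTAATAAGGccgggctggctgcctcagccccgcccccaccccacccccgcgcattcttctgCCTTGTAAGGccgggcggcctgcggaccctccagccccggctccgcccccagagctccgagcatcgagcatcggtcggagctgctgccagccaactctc

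The Acta2 window held 2 matches, starting 84 and 34 bases before the gene start, each with 1 core base that is G or C. The Myl9 window also held 2, starting 161 and 99 bases before the gene start, and the first of these, CCTAATAAGG, had a pure A/T core. Such a pure match occurred in 1.47% of 32851 promoter windows of the same length, and a match with at most 1 other core base in 8.59%. Promoters were listed for 23 of the 32 genes, some with several windows. Of their 27 windows, 7 held a match, in 7 genes, the others being Egfl7, Eng, Kdr, Slco1a4 and Ocln. A match describes the letters only and is no evidence of binding.

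Cspg5 was listed with the mural genes, but it encodes neuroglycan C, a chondroitin sulfate proteoglycan known from neurons and glia, and it is not a marker of pericytes. It measured 933 to 978 in heterozygous and 849 to 1012 in wild-type brains, which overlap. The log2 difference was 0.07 (SE 0.09). The mural values below include Cspg5 unless they are said to be without it.

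The level of each class on an array was the mean log2 value over its genes, centred on the mean of the 6 arrays. No test was run on these levels, because the genes were chosen with results of these data known. The endothelial level was -0.02, -0.0038 and 0.02 in heterozygous brains and -0.02, -0.02 and 0.04 in wild-type brains. All 6 values lay close together, the highest on wild type 3. Heterozygous minus wild type came to -0.0024, against a within-genotype SD of 0.03. Smaller groups of endothelial genes varied more from brain to brain. The within-genotype SD was 0.13 for junction genes, 0.14 for receptors, 0.06 for transporters and 0.04 for surface or secreted proteins, with 5 genes each.

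The mural level was 0.08, -0.02 and 0.03 in heterozygous and -0.02, -0.14 and 0.06 in wild-type brains. By sign 7 of the 8 mural genes tested were higher in heterozygous brains, Rgs5 being the exception, with a median log2 difference of 0.07. Without Cspg5, 6 of 7 were higher, with a median of 0.08. For the 21 endothelial genes the split was 10 higher and 11 lower, with a median of -0.02. The mural level differed by 0.06 between genotypes, less than its within-genotype SD of 0.08, and by 0.06 without Cspg5. Without wild type 2 the mural difference was 0.01.

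Set against each other, mural minus endothelial was 0.09, -0.01 and 0.02 in heterozygous and 0.0062, -0.12 and 0.01 in wild-type brains. The genotypes overlapped, the extremes being heterozygous 1 and wild type 2, and the difference of 0.07 was about the size of the within-genotype SD of 0.06. This difference was 0.02 without wild type 2, 0.03 without heterozygous 1 and 0.065 without Cspg5.

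Pericyte and smooth muscle genes ordered the brains differently. The pericyte level was -0.05, 0.03 and 0.10 in heterozygous and -0.08, -0.05 and 0.06 in wild-type brains, lowest on wild type 1 and highest on heterozygous 3. The smooth muscle level was 0.28, -0.11 and -0.05 in heterozygous and 0.10, -0.25 and 0.03 in wild-type brains. Its range was the widest of the vessel classes, with heterozygous 1 at the top and wild type 2 at the bottom. The within-genotype SD was 0.20 for smooth muscle, 0.08 for pericyte and 0.03 for endothelial genes, levels that average 3, 4 and 21 genes.

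Other measures also differed between the arrays. The 18S ribosomal RNA control signal was lowest on heterozygous 1 (80.3) and highest on wild type 2 (179), against 94.4 to 115 elsewhere. The 3' to 5' signal ratio of the beta-actin control ran from 1.6 to 1.72, highest on heterozygous 1 and 1.66 on wild type 2. For the Gapdh control this ratio was 0.747 to 0.755 in heterozygous and 0.713 to 0.731 in wild-type brains. By this measure the genotypes did not overlap. Over all genes tested, heterozygous 1 was the highest array for 21.5% and wild type 2 the lowest for 18.8%. The shares were 31.0% and 24.1% of the 29 vessel genes. Heterozygous 1 was also the lowest array for 18.7% of all genes and 13.8% of the vessel genes. Of the 8 mural genes, 5 were lowest on wild type 2. The part of these measures in the smooth muscle values and in the genotype differences was not tested.

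**Figure D4:**
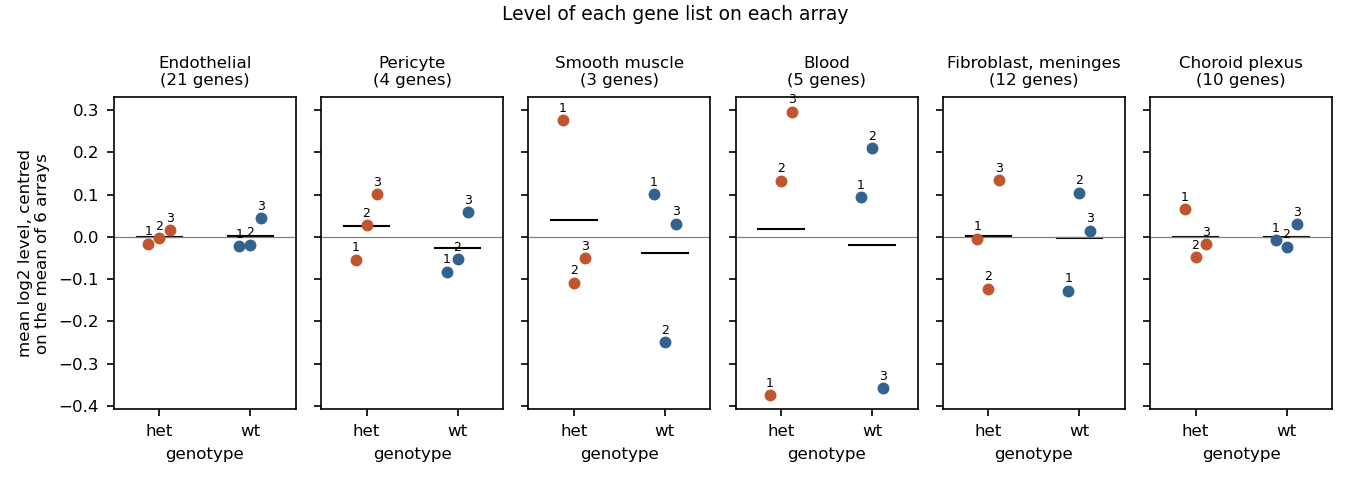
Mean log2 level of each gene list on each array, centred on the mean of the 6 arrays, by genotype. Points are brains with their replicate number, and bars are genotype means. Endothelial values stay within 0.05 of 0, smooth muscle values spread from -0.25 to 0.28, and the genotypes overlap in every panel.

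The summed signals of blood, fibroblast and choroid plexus markers overlapped between genotypes. Of 12 blood markers, which include the haemoglobin genes, 5 were tested (Ngp, S100a8, S100a9, Alas2 and Hbb-b2), and their summed signal was 106 to 218 in heterozygous and 109.7 to 204 in wild-type brains. The blood level was low on heterozygous 1 (-0.37) and wild type 3 (-0.36). The blood markers tested were of low signal, from 10.1 (S100a9 on wild type 3) to 87.6 (S100a8 on heterozygous 2). Only 1 of the 5 had a 95% interval within 1.5-fold, so the overlap does not show that blood content was equal. Of 13 markers of fibroblasts and meninges, 12 were tested, with summed signals of 2755 to 3123 and 2635 to 3112. The choroid plexus list, with 10 of 10 tested, summed to 9960.0 to 12673 in heterozygous and 9710.4 to 11169.8 in wild-type brains. The main choroid plexus transcript Ttr lay at 0.13 (SE 0.11). Kcnj13, a potassium channel gene of the choroid plexus, was the 1 marker of this list whose genotypes did not overlap, at 0.26 (SE 0.12, limma adjusted p = 0.956), and it was named after its values were seen. None of the markers tested in these lists was called.

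Levels of the brain's main cell types varied as well. The neuron level was 0.07 higher in heterozygous brains, with its highest value, 0.11, on heterozygous 1, and the astrocyte difference was -0.09. Both exceeded their within-genotype SDs, 0.05 for neurons and 0.07 for astrocytes, though the genotypes overlapped in both. By sign 9 of 10 neuron markers and 3 of 10 astrocyte markers were higher in heterozygous brains, and 0 were called. Gfap, the intermediate filament gene of astrocytes, measured 712, 441 and 449 in heterozygous and 796, 522 and 802 in wild-type brains, at -0.40 (SE 0.20, limma adjusted p = 0.956). Its 2 groups overlapped through heterozygous 1 and wild type 2. Pdgfra, a receptor gene of oligodendrocyte precursors and fibroblasts, lay at -0.04 (SE 0.10). The part of these cell types in the vessel gene values was not tested.

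Other genes of vessels and of the signals that build them, 91 in all and none of them members, were tested alongside. Of these, 82 passed the dim filter, 0 were called, and 3 had an unadjusted limma p under 0.05, where 4.38% of all genes did. By sign 39 were higher and 43 lower, with a median of -0.01. The 36 further endothelial genes tested had a median of -0.01 and the 30 vascular signalling genes -0.02. Of the 16 further mural genes, 11 were higher and 5 lower by sign, with a median of 0.05. The further mural genes were highest on heterozygous 1 (0.06) and lowest on wild type 2 (-0.07), the arrays at the ends of the smooth muscle range.

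The 3 highest of these genes by moderated t were Tfrc, Notch1 and Jag1. Tfrc, the transferrin receptor gene, which barrier endothelium and other brain cells express, measured 881, 981 and 981 in heterozygous and 826, 802 and 777 in wild-type brains. The genotypes did not overlap, with heterozygous minus wild type at 0.23 (SE 0.08, limma adjusted p = 0.956). The receptor gene Notch1 measured 153, 133 and 116 against 92.9, 104 and 105, also without overlap, at 0.36 (SE 0.13, limma adjusted p = 0.956). Jag1, which encodes a Notch ligand, lay at 0.21 (SE 0.14).

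The 3 lowest were Fzd4, Plvap and Foxq1. Fzd4, the receptor for norrin and Wnt signals that maintain the barrier, measured 83.3, 52.9 and 72.0 in heterozygous and 79.2, 109.9 and 100.1 in wild-type brains. Only heterozygous 1 and wild type 1 were out of order, and Fzd4 lay at -0.40 (SE 0.17, limma adjusted p = 0.956). Plvap, a protein of fenestrated vessels, lay at -0.26 (SE 0.13), and the transcription factor gene Foxq1 at -0.35 (SE 0.19). None of the 6 passed the adjusted threshold. Genotypes did not overlap for 3 of the 82 genes, all higher in heterozygous brains, where 5.19% of all genes were. Beside Tfrc and Notch1 this was Car4, a carbonic anhydrase gene of capillaries, at 0.11 (SE 0.09), named after its values were seen.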

How the data were processed

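Whole-brain RNA of 3 heterozygous and 3 wild-type mice was measured on 1 Affymetrix array each. The deposited values are linear intensities, 1 per probe set. The authors had scaled them, since the mean of the central 96% of values was 150.0 on each array. The sources used here do not name the summarising software. The number of arrays limits the precision. Genes came from the platform annotation, with symbols updated through a RefSeq table (GRCm38.p6), which matched 34741 of 34945 single-gene probe sets.

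After 64 control probe sets were set apart, intensities became log2(value + 16), with no further normalization. Probe sets with a mean log2 value at or below the 40th percentile were removed (18015), which left 27022. Genotypes were compared with limma 3.58.1 in R 4.3.3 (lmFit, eBayes with an intensity trend, no covariate, two-sided, Benjamini-Hochberg, threshold 0.05). The steps were run on data simulated with independent normal errors from the fitted variance model. That checks the code and not whether these assumptions hold here.

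All members were named. Values on every array are given for 12 members fixed by role and for members with an unadjusted p under 0.05 or separate genotypes, and the 3 highest and 3 lowest other vessel genes by moderated t. Members and lists were chosen with earlier results of these data known. Array pairs correlated at 0.978 to 0.985. Alternatives covered scaling, pseudocount, dim filter, variance model, array weights, replicate block, probe set choice, and leaving out each array.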

Additional observations from a re-analysis of the deposited data

How the results depend on the processing

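No endothelial and no mural gene was called, and 0 had an unadjusted limma p under 0.05, under any of 16 alternative fits, in which the lowest limma adjusted p of any member was 0.741. The mural difference stayed above 0, from 0.01 to 0.11, and mural minus endothelial from 0.02 to 0.09. The endothelial difference was -0.037 under median centring, where the median of all probe sets moved from 0.01 to -0.03. With the replicate block 0 members were called, and the limma adjusted p of 0.741 came from that fit. The block cannot move the endothelial and mural differences (-0.0024 and 0.06), since each block holds 1 array of each genotype. The labels do not say that equal numbers mark a shared litter, and the first heterozygous brain has no number in its label and was numbered 1 in deposit order. Same-numbered arrays correlated at 0.08, 0.20 and -0.02 in their deviations from the genotype means. Differently numbered arrays of opposite genotype correlated at -0.16 to 0.09.

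Of 29 genes, 20 changed sign under some alternative, none of them called. Under median centring Cldn5 was at -0.014, Abcb1a at -0.012 and Emcn at -0.015. With array weights Slco1c1 was at 0.0044, Egfl7 at 0.0082 and Tagln at -0.02. Leaving out 1 array at a time gave -0.048 to 0.10 for Abcb1a, -0.023 to 0.20 for Acta2, -0.087 to 0.32 for Cdh5, -0.029 to 0.083 for Cldn5 and -0.11 to 0.050 for Egfl7. It gave -0.12 to 0.16 for Emcn, -0.016 to 0.20 for Eng, -0.16 to 0.058 for Esam, -0.38 to 0.021 for Flt1 and -0.026 to 0.17 for Myl9. The ranges were -0.25 to 0.034 for Ocln, -0.0087 to 0.12 for Pdgfrb, -0.16 to 0.088 for Rgs5, -0.10 to 0.0090 for Slc2a1 and -0.050 to 0.12 for Slco1a4. They were -0.11 to 0.060 for Slco1c1, -0.16 to 0.053 for Sox17, -0.11 to 0.19 for Tagln, -0.25 to 0.018 for Tie1 and -0.011 to 0.24 for Vwf. Signal near background limits Anpep, the second Cdh5 probe set, Tie1, and the dimmer probe sets of Pdgfrb and Abcc9. Kdr, the top of the range, was also of low signal, with a mean of 35.4 converted back from the log2 scale.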
